A study of Mus musculus with 23 samples.

Results

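Testis explants kept for 16 days in organ culture (D16) were compared with testes that had grown to the matched age of 22.5 days post partum (dpp) in the animal. Of the 23 libraries of the series, 5 were set against each other here, the 2 labelled D16 and the 3 labelled 22.5 dpp, chosen by their labels alone. All animals were CD-1 mice, an outbred stock. The D16 explants were fragments of fresh 6.5 dpp testes on agarose in α-MEM with KnockOut serum replacement, gentamicin and retinol, and the 22.5 dpp testes were fresh and never cultured. No allele, transgene or freezing step separates the groups. Explants of a replicate were pooled after their necrotic centre had been removed, so a D16 library reads the outer tissue of several explants, whereas a 22.5 dpp library reads testis without such trimming. The other libraries of the series (testes at 6.5, 10.5 and 36.5 dpp, explants at D4 and D30) entered the estimate of each gene's spread and a comparison of the culture effect between stages. Some of the 6.5 dpp libraries and a D30 library came from tissue frozen by controlled slow freezing and thawed. They were grouped with the fresh libraries of their stage, so the D30 values mix fresh and frozen-thawed tissue. The labels name no sequencing batch or date.

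In the juvenile mouse testis the earliest germ cells to differentiate advance as a cohort, so the age of the animal sets which stages are present. Spermatogonia enter meiosis, spermatocytes pass through the long pachytene stage, and the resulting haploid spermatids build an acrosome and a flagellum. Sertoli cells nurse the germ cells inside the tubule and seal it with the blood-testis barrier, Leydig cells between the tubules make androgens from cholesterol, and peritubular myoid cells, vessels and macrophages make up the rest of the tissue. An explant has no circulation and receives no pituitary hormones, and oxygen and nutrients reach it by diffusion.

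The 5 libraries held between 31634658 and 45760541 counts on genes, with 16834 to 17424 genes at 10 counts or more in each. Levels are in CPM, which are counts scaled to a common library size, with TMM factors applied, so that levels and fold changes share a scale. The median gene differed by 0.313 on the log2 scale between the D16 replicates, and 9.72% of genes lay at least 2-fold apart. At 22.5 dpp the median difference was 0.142 between replicates 1 and 3, with 0.0727% of genes 2-fold apart, but 0.290 and 0.299 between replicate 2 and these, with 6.11% and 6.46% of genes 2-fold apart. The summed levels of the pachytene, acrosome, flagellum and sperm chromatin lists were lower in D16 replicate 2 than in D16 replicate 1, and lower in 22.5 dpp replicate 2 than in the other 22.5 dpp libraries. The library labelled 6.5 dpp fresh replicate 1 was closest to D16 replicate 1 in profile (Spearman's rho over genes 0.986, against 0.909 with the other 6.5 dpp fresh library; genes do not count as independent points). It is in no group compared here and was left out of the fit.

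Nearly as many genes fell as rose at D16. Of 19255 genes tested with edgeR's quasi-likelihood F test, 4967 (25.8%) passed a Benjamini-Hochberg adjusted p under 0.05, which is called "passed the test" from here on. Of these, 2695 (14.0% of all genes tested) were higher at D16 and 2272 (11.8%) lower, and 1700 of the higher and 1587 of the lower genes were changed at least 2-fold. Differentially expressed genes (DEGs) were those changed by at least 2 on the log2 scale whose adjusted p did not exceed 0.001. By these thresholds 273 genes (1.42%) were DEGs, 217 (1.13%) higher and 56 (0.291%) lower at D16, and in each of the 273 the D16 libraries and the 22.5 dpp libraries did not overlap. The same held for 99.3% of all higher and 95.6% of all lower genes that passed the test, so it does not set the DEGs apart. The balance of directions depended on scaling. Higher genes were 54.3% of those that passed with TMM factors, 43.9% with RLE factors, 68.0% with library size alone and 41.9% with DESeq2, and library size alone moved the median of all genes by 0.15 on the log2 scale. The lower genes rested largely on D16 replicate 2: without it 970 genes were higher and 185 lower, and 150 DEGs were higher and 10 lower. Leaving out 22.5 dpp replicate 1 or 3 also cut the counts, to 1417 higher and 721 lower or 1526 higher and 804 lower, with 143 or 149 DEGs. When the spread was estimated from the 5 libraries alone, 1687 genes passed the test and none reached the DEG thresholds, with 6317 at an unadjusted p under 0.05 (DESeq2 on all libraries gave 427 DEGs).

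**Figure D1:**
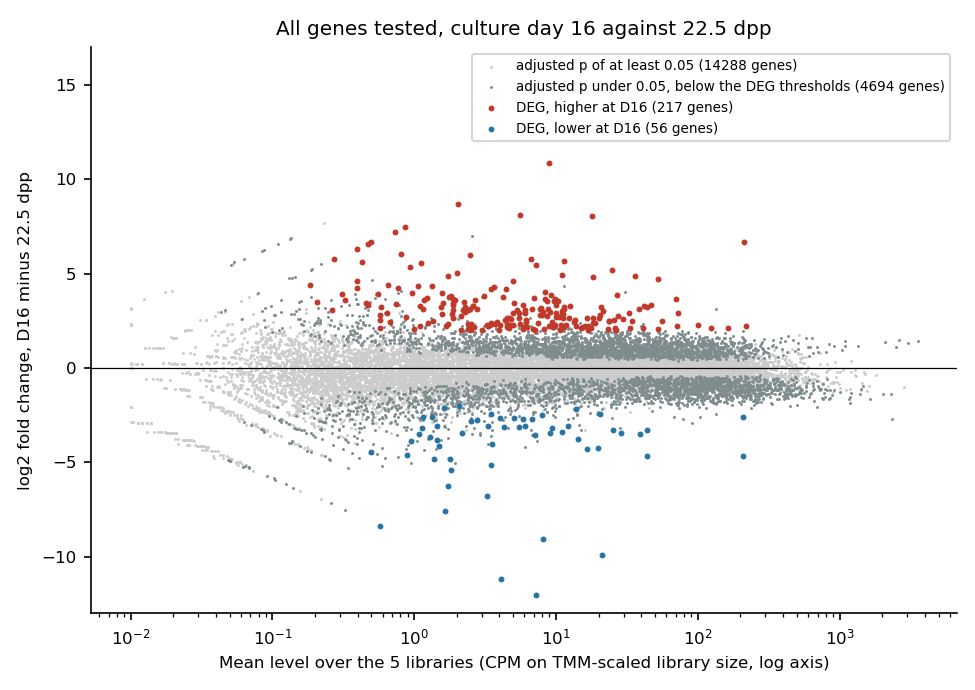
Each point is 1 of the 19255 genes tested, with its mean CPM over the 5 libraries on a log x axis and the log2 fold change of D16 minus 22.5 dpp on the y axis. The 217 DEGs higher at D16 (red) and the 56 lower (blue) stand out at intermediate levels, while the genes in dark grey that passed the test without reaching the DEG thresholds lie closer to 0 on both sides.

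Igfbp3 and Vldlr were among the leading genes higher at D16. Igfbp3, which encodes a carrier protein of insulin-like growth factors (NCBI gene 16009, chromosome 11, bases 7206086 to 7215498), had 679 and 363 CPM at D16 and 4.03, 6.56 and 4.46 CPM at 22.5 dpp, a log2 fold change of 6.69 (SE 0.38, adjusted p = 1.11e-08). Both D16 libraries were far above all 22.5 dpp libraries, and replicate 1 was above replicate 2. The change with the smallest p was that of Vldlr, a lipoprotein receptor (NCBI gene 22359, chromosome 19, bases 27216480 to 27254231), with 40.2 and 46.4 CPM at D16 and 1.57, 1.52 and 1.44 CPM at 22.5 dpp and a log2 fold change of 4.84 (SE 0.21, adjusted p = 2.34e-10). Its values were close to each other within both groups. Mest, an imprinted gene expressed from the paternal allele and high in growing fetal tissue, had 66.8 and 55.5 CPM at D16 and 3.79, 5.48 and 3.19 CPM at 22.5 dpp (log2 fold change 3.87, SE 0.25, adjusted p = 5.30e-08). Gpx3, a secreted glutathione peroxidase, had 161 and 87.9 CPM at D16 and 4.58, 4.89 and 4.63 CPM at 22.5 dpp (log2 fold change 4.72, SE 0.35, adjusted p = 2.49e-07). Maff, a small bZIP protein that pairs with stress-responsive transcription factors, had 12.9 and 12.7 CPM at D16 and 1.29, 1.54 and 1.79 CPM at 22.5 dpp (log2 fold change 3.06, SE 0.20, adjusted p = 5.30e-08). These genes were all at single-digit CPM in every 22.5 dpp library.

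The other 5 of the 10 leading DEGs higher at D16 were Bhlhe40, Cfi, Clca2, Vegfa and Pecam1. Bhlhe40, a transcriptional repressor known as a hypoxia and clock gene, had 43.7 and 50.1 CPM at D16 and 9.48, 7.49 and 8.28 CPM at 22.5 dpp (log2 fold change 2.48, SE 0.18, adjusted p = 2.21e-07). Cfi, a protease that inactivates complement, had 23.1 and 23.0 CPM at D16 and 1.90, 2.68 and 1.37 CPM at 22.5 dpp (log2 fold change 3.52, SE 0.27, adjusted p = 2.94e-07). Clca2, a membrane-anchored metalloprotease that modulates chloride channels, was near the limit of detection at 22.5 dpp, with 19.2 and 13.4 CPM at D16 and 0.151, 0.303 and 0.456 CPM at 22.5 dpp (log2 fold change 5.75, SE 0.45, adjusted p = 3.55e-07), and its reads may be shared in part with neighbouring members of its family. Vegfa, the main growth factor of vessels (NCBI gene 22339, chromosome 17, bases 46016993 to 46032377), had 133 and 182 CPM at D16 and 11.5, 16.2 and 9.41 CPM at 22.5 dpp (log2 fold change 3.67, SE 0.29, adjusted p = 3.58e-07). Pecam1, an adhesion protein of endothelial cells, had 82.1 and 55.2 CPM at D16 and 7.62, 11.1 and 8.70 CPM at 22.5 dpp (log2 fold change 2.91, SE 0.23, adjusted p = 4.33e-07). All 10 kept an adjusted p under 0.05 in each alternative run.

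Cyp17a1 and Ass1 were among the leading genes lower at D16. Cyp17a1, the Leydig cell enzyme that turns progestogens into androgens (NCBI gene 13074, chromosome 19, bases 46667165 to 46673000), had 14.7 and 12.3 CPM at D16 and 397, 259 and 356 CPM at 22.5 dpp, a log2 fold change of -4.64 (SE 0.38, adjusted p = 6.56e-07). Every 22.5 dpp library was far above both D16 libraries. Ass1, the argininosuccinate synthase of arginine synthesis, had 5.26 and 5.71 CPM at D16 and 73.8, 49.4 and 61.9 CPM at 22.5 dpp (log2 fold change -3.49, SE 0.28, adjusted p = 5.95e-07). Aplnr, the apelin receptor of developing vessels, had 4 and 2 counts at D16 and 99, 176 and 62 counts at 22.5 dpp (adjusted p = 1.85e-07). Car4, a carbonic anhydrase of the capillary surface, had 3 and 6 counts at D16 and 85, 98 and 118 counts at 22.5 dpp (log2 fold change -4.82, SE 0.44, adjusted p = 1.42e-06). F13a1, a transglutaminase subunit made by resident macrophages, had 1.78 and 3.71 CPM at D16 and 69.8, 74.9 and 68.6 CPM at 22.5 dpp (log2 fold change -4.69, SE 0.54, adjusted p = 1.57e-05). Cd209g, a lectin of the DC-SIGN family, had 1 and 0 counts at D16 and 80, 145 and 78 counts at 22.5 dpp (adjusted p = 7.00e-06). In Aplnr and Cd209g the D16 libraries averaged no more than the floor of 3 counts per library, so no fold is given.

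The remaining leading DEGs lower at D16 were Itih2, Bpifb4, Nat8f5 and Gm35454. Itih2, which encodes a heavy chain that binds hyaluronan, had 4.37 and 6.64 CPM at D16 and 33.2, 28.6 and 29.5 CPM at 22.5 dpp (log2 fold change -2.46, SE 0.29, adjusted p = 2.09e-05). Bpifb4, of the family of lipid-binding BPI proteins, had 0.296 and 0.311 CPM at D16 and 3.34, 3.53 and 3.33 CPM at 22.5 dpp (log2 fold change -3.47, SE 0.41, adjusted p = 2.31e-05), Nat8f5, an acetyltransferase-like gene, had 0.173 and 0.104 against 2.83, 1.62 and 2.81 CPM (log2 fold change -4.11, SE 0.49, adjusted p = 2.37e-05), and the predicted lncRNA gene Gm35454 had 0.0494 and 0.104 against 2.29, 2.14 and 2.35 CPM (log2 fold change -4.80, SE 0.52, adjusted p = 1.72e-05). All of them were below 1 CPM at D16 except Itih2. All 10 leading lower genes also kept an adjusted p under 0.05 in each alternative run.

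**Figure D2:**
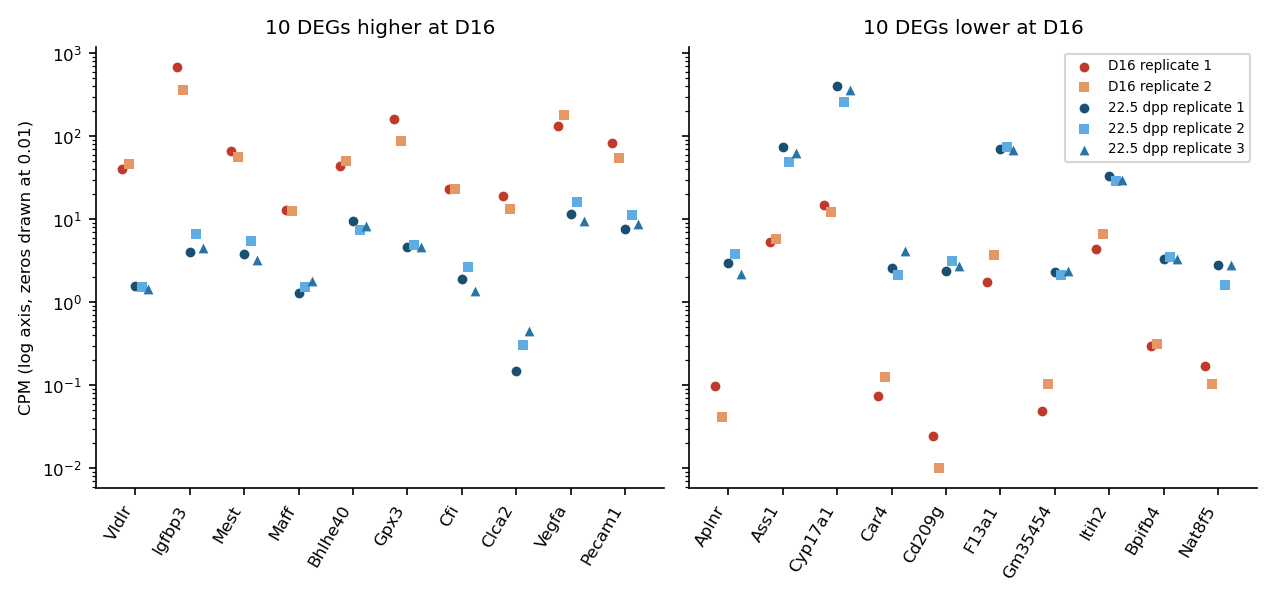
Level of the 10 leading DEGs in each direction, in CPM on a log axis with zeros drawn at 0.01, with 1 point per library (D16 in red shades, 22.5 dpp in blue shades). The genes were picked among DEGs without overlap, so by choice the 2 D16 points lie wholly above or wholly below the 3 points of 22.5 dpp. Igfbp3 reaches 679 and 363 against 4.03, 6.56 and 4.46 CPM.

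Some meiotic, acrosomal and flagellar genes were lower at D16. In bulk tissue, fewer cells of a type and less RNA per cell cannot be told apart. Of 29 meiotic prophase genes, 8 passed the test, each lower at D16, where 11.8% of all genes tested were lower (median log2 fold change of the list -0.72, against -0.08 over all genes tested). Of 22 genes of pachytene spermatocytes and the piRNA pathway, 12 were lower (median -0.99), and of 33 genes of the flagellum and axoneme 18 were lower (median -1.43). Of 20 acrosome genes 5 were lower (median -1.22). These counts moved with single libraries. Without D16 replicate 2 they were 1, 0, 0 and 0 in the same order, and without D16 replicate 1 they were 7, 15, 33 and 20. Without 22.5 dpp replicate 1 they were 3, 4, 10 and 2, and without 22.5 dpp replicate 3 they were 4, 6, 9 and 1. With the library labelled 6.5 dpp fresh replicate 1 in the fit all 4 counts were 0.

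The meiotic genes that passed encode proteins of crossover formation, the chromosome axis and telomere attachment. Msh5, which stabilises crossover intermediates, had 16.2 and 13 CPM at D16 and 44.4, 43.9 and 45.6 CPM at 22.5 dpp (log2 fold change -1.61, SE 0.28, adjusted p = 0.000714). Its partner Msh4 had 19.3 and 15.9 against 33.2, 41.3 and 31.0 CPM (log2 fold change -1.0, SE 0.26, adjusted p = 0.0124), and Stag3, the meiotic cohesin subunit, had 369 and 267 against 825, 613 and 811 CPM (log2 fold change -1.24, SE 0.30, adjusted p = 0.00747). The values of all 3 were lower in both D16 libraries than in every 22.5 dpp library, and the calls of Msh4 and Stag3 were lost without D16 replicate 2. Sycp1, the transverse filament of the synaptonemal complex, had 264 and 188 against 386, 465 and 275 CPM without passing the test (adjusted p = 0.0845). Sycp3, of its lateral element, had 255 and 100.3 against 200.1, 198 and 190.1 CPM (adjusted p = 0.866), so D16 replicate 1 was above and replicate 2 below the 22.5 dpp testes.

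In the pachytene and piRNA list, Hspa2, the heat shock protein of spermatocytes, had 902 and 509.7 CPM at D16 and 1845, 1409.5 and 2288 CPM at 22.5 dpp (log2 fold change -1.39, SE 0.33, adjusted p = 0.0071). Rfx2, a transcription factor of ciliary and spermatid genes, had 147 and 78.7 against 397, 234 and 411 CPM (log2 fold change -1.63, SE 0.43, adjusted p = 0.0125), and Tdrd6, a tudor protein of the chromatoid body, had 433 and 245 against 1307, 629 and 1140 CPM (log2 fold change -1.59, SE 0.44, adjusted p = 0.0151). Piwil1, a PIWI protein that binds pachytene piRNAs, had 489 and 390.4 against 1233, 984 and 1343 CPM (log2 fold change -1.43, SE 0.46, adjusted p = 0.0323), and its regulator Mybl1 had 101 and 73.5 against 181, 148 and 118 CPM (adjusted p = 0.105). The germ cell marker Ddx4, an RNA helicase present from spermatogonia to spermatids, had 625 and 407 CPM at D16 and 1080.1, 827 and 855 CPM at 22.5 dpp (log2 fold change -0.84, SE 0.28, adjusted p = 0.0342). These 5 calls were lost without D16 replicate 2, and those of Tdrd6, Piwil1 and Ddx4 also without 22.5 dpp replicate 1. The calls of Piwil1 and Ddx4 were lost without 22.5 dpp replicate 3 as well, and that of Piwil1 without D16 replicate 1.

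Flagellar and acrosomal genes varied widely between replicates. Rsph1, of the radial spoke head, had 832 and 600.1 CPM at D16 and 2334, 1509 and 2983 CPM at 22.5 dpp (log2 fold change -1.67, SE 0.35, adjusted p = 0.003), Rsph9 had 35.1 and 16.3 against 95.4, 46.6 and 110.1 CPM (log2 fold change -1.71, SE 0.39, adjusted p = 0.00538) and Tekt5, a tektin filament protein, had 12.0 and 4.90 against 43.0, 18.1 and 43.4 CPM (log2 fold change -2.04, SE 0.47, adjusted p = 0.00582). In the acrosome list Pcsk4, a convertase of sperm proteins, had 54.6 and 30.8 against 152, 95.4 and 164 CPM (log2 fold change -1.68, SE 0.40, adjusted p = 0.00775), Acrbp, which binds proacrosin, had 107 and 44.3 against 253, 135 and 338 CPM (log2 fold change -1.68, SE 0.46, adjusted p = 0.0147) and Dpy19l2, needed to anchor the acrosome, had 144 and 71.3 against 339, 175 and 278 CPM (log2 fold change -1.29, SE 0.41, adjusted p = 0.0287). In each of these 6 genes every D16 value was lower than every 22.5 dpp value, and all 6 calls were lost without D16 replicate 2. That of Acrbp was also lost without 22.5 dpp replicate 3 and that of Dpy19l2 without 22.5 dpp replicate 1 or 3. Akap4, the anchoring protein of the fibrous sheath, did not pass (adjusted p = 0.424) and had 62.1 and 1.18 CPM at D16 and 94.7, 14.4 and 92.2 CPM at 22.5 dpp. Odf1, of the outer dense fibres, had 43.1 and 0.913 against 48.3, 8.79 and 58.5 CPM (adjusted p = 0.542). For both, D16 replicate 1 was close to 22.5 dpp replicates 1 and 3, and D16 replicate 2 was below every other library.

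The latest germ cell genes, those of sperm chromatin, could not be separated with these replicates. Of 12 genes none passed edgeR's test, 3 had an unadjusted p under 0.05, and DESeq2 called 2, both lower (median -1.19). Without D16 replicate 1 edgeR called 6 lower. The protamine gene Prm1 had 1.23 and 1.04 against 4.21, 0.303 and 4.81 CPM, Prm2 had 1.53 and 1.76 against 7.04, 0.541 and 8.63 CPM and the transition protein gene Tnp1 had 5.36 and 0.747 against 8.43, 0.476 and 13.5 CPM, with adjusted p values of 0.29, 0.281 and 0.346. In all 3 genes 22.5 dpp replicate 2 was the lowest of the 5 libraries.

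Some genes of undifferentiated spermatogonia were higher at D16. The share was 33.3%, beside 14.0% of all genes tested. Of 18 genes of undifferentiated spermatogonia 6 were higher at D16 (median 0.93; 1 without D16 replicate 2, and 3 without 22.5 dpp replicate 1 or 3). Bcl6b, a factor of stem cell self-renewal, had 25 and 25.1 CPM at D16 and 7.56, 5.93 and 6.42 CPM at 22.5 dpp (log2 fold change 1.92, SE 0.23, adjusted p = 2.87e-05). Gfra1, the GDNF co-receptor, had 15.7 and 26.2 against 7.68, 8.59 and 7.58 CPM (log2 fold change 1.40, SE 0.34, adjusted p = 0.00869) and Eomes, a marker of a subset of stem cells, had 1.04 and 1.62 against 0.271, 0.390 and 0.211 CPM (log2 fold change 2.16, SE 0.51, adjusted p = 0.00706), and both calls were lost without D16 replicate 2. Zbtb16 had 29.2 and 48.5 against 19.9, 38.1 and 16.2 CPM and overlapped between groups (adjusted p = 0.265). Which cells of the bulk tissue carried the higher transcripts of this list was not tested. Of 14 genes of differentiating spermatogonia and meiotic entry 2 were higher and 2 lower (median -0.24), shares near those over all genes tested. The higher ones were Rhox13, a homeobox gene on the X chromosome (7.26 and 13.6 against 1.45, 1.13 and 1.58 CPM, log2 fold change 2.92, SE 0.38, adjusted p = 5.89e-05), and Ccnd2, a cyclin of differentiating spermatogonia (125 and 149 against 41.2, 66.8 and 38.0 CPM, log2 fold change 1.49, SE 0.33, adjusted p = 0.00453). The lower ones were Bhmg1, which encodes the meiotic initiator MEIOSIN (21.5 and 28.7 against 73.5, 59.0 and 66.1 CPM, log2 fold change -1.40, SE 0.30, adjusted p = 0.00398), and Dmrtb1. Dmrtb1 had 302 and 118 against 518, 328 and 555 CPM (log2 fold change -1.15, SE 0.39, adjusted p = 0.0377). The calls of Ccnd2 and Dmrtb1 were lost without D16 replicate 2, and that of Dmrtb1 also without 22.5 dpp replicate 1 or 3. Stra8, the partner of MEIOSIN, had 58.2 and 79.6 against 45.0, 51.6 and 51.4 CPM (adjusted p = 0.154) and Kit had 50.4 and 64.2 against 52.6, 89.6 and 51.5 CPM (adjusted p = 0.665).

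**Figure D3:**
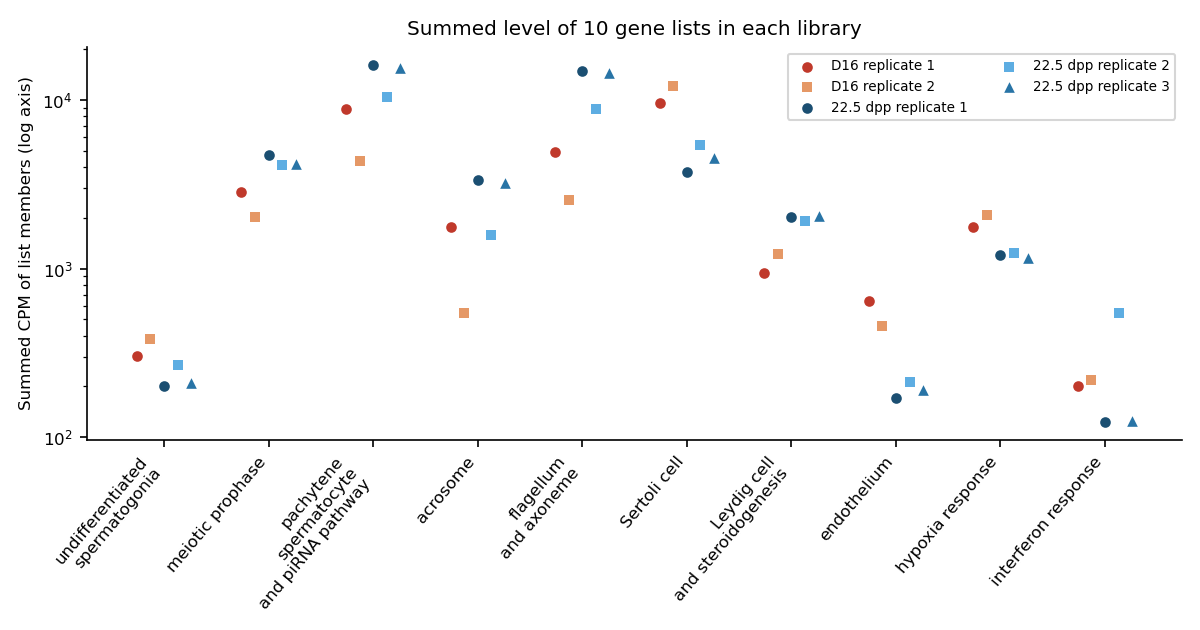
Summed CPM of the members of 10 gene lists in each of the 5 libraries, on a log axis. For the acrosome list the sums were 1763 and 541 CPM at D16 and 3358, 1582 and 3232 CPM at 22.5 dpp, so D16 replicate 2 was lowest and 22.5 dpp replicate 2 was below D16 replicate 1, whereas for the endothelial and Sertoli cell lists both D16 libraries lie above all 22.5 dpp libraries.

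Sertoli cell genes were higher at D16. Of 25 genes, 19 rose, where 14.0% of all genes tested rose, and 1 fell (median 1.30; 9 rose without D16 replicate 2), and the summed level was 9601 and 12108 CPM at D16 and 3757, 5425 and 4507 CPM at 22.5 dpp. Fshr, the receptor of follicle-stimulating hormone, had 46.5 and 55.6 CPM at D16 and 13.9, 16.8 and 12.5 CPM at 22.5 dpp (log2 fold change 1.82, SE 0.19, adjusted p = 6.67e-06). Sox9, the transcription factor that fixes Sertoli cell fate, had 106 and 161 against 30.4, 57.5 and 29.1 CPM (log2 fold change 1.77, SE 0.27, adjusted p = 0.000274), Vim, the intermediate filament vimentin, had 861 and 728 against 271, 366 and 329 CPM (log2 fold change 1.30, SE 0.19, adjusted p = 0.000163), and Gata4 had 139 and 239 against 61.2, 85.5 and 58.4 CPM (log2 fold change 1.47, SE 0.29, adjusted p = 0.0019, lost without D16 replicate 2). Hsd17b1, an enzyme that makes estradiol, had the largest fold change of the list, with 7.31 and 3.88 against 0.482, 0.628 and 0.632 CPM (log2 fold change 3.26, SE 0.41, adjusted p = 3.96e-05). Amh, the hormone of immature Sertoli cells, had 52.2 and 54.7 against 29.4, 40.7 and 33.3 CPM (log2 fold change 0.63, SE 0.21, adjusted p = 0.038), a call lost without any 1 of the libraries other than 22.5 dpp replicate 2 and with RLE factors. The member that fell was Rhox5, an androgen-dependent homeobox gene of Sertoli cells, with 1.14 and 1.14 against 4.09, 5.50 and 4.32 CPM (log2 fold change -2.02, SE 0.63, adjusted p = 0.0272), and this call too was lost without any 1 of the libraries other than 22.5 dpp replicate 2. Over the same libraries the flagellum and axoneme list summed to 4948 and 2551 CPM at D16 and 14953, 8843 and 14534 CPM at 22.5 dpp, and the part of the loss of germ cell transcripts in the rise of somatic genes was not tested.

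Junction genes of the blood-testis barrier rose with them, 8 of 14 (median 1.01; 5 without D16 replicate 2). Jam2, a junctional adhesion molecule, had 199 and 266 CPM at D16 and 49.3, 70.4 and 38.7 CPM at 22.5 dpp (log2 fold change 2.14, SE 0.23, adjusted p = 7.85e-06), Ocln, occludin of tight junctions, had 89.3 and 103 against 20.9, 29.9 and 17.3 CPM (log2 fold change 2.08, SE 0.31, adjusted p = 0.000185), and Gja1, connexin 43, had 295 and 439.6 against 129.5, 203 and 119 CPM (log2 fold change 1.29, SE 0.23, adjusted p = 0.000925). Cldn3, the claudin of forming barriers, had 2.32 and 2.97 against 3.19, 4.11 and 4.11 CPM (adjusted p = 0.333). Of the barrier list 57.1% were higher, beside 14.0% of all genes tested. Of 15 peritubular myoid genes 1 was higher and 1 lower (6.67% each, below the shares over all genes tested, median -0.16). Acta2, smooth muscle actin, had 184 and 157 against 199, 259 and 232 CPM (adjusted p = 0.225) and Myh11, its myosin partner, had 47.7 and 74.6 against 107, 169 and 119 CPM (adjusted p = 0.0854), so both were lower at D16 in every library without passing. The higher member was Pgm5, of adhesion plaques (4.00 and 3.59 against 0.662, 1.84 and 0.983 CPM, log2 fold change 1.69, SE 0.39, adjusted p = 0.00609). The lower one was Srd5a2, a steroid 5-alpha-reductase, with 2 and 1 counts at D16 and 8, 24 and 7 counts at 22.5 dpp. Its call was lost without D16 replicate 2, and no fold is given for so few counts.

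Most genes of the Leydig cell list that passed the test fell. Of 20 genes tested 9 were lower and 2 higher (45.0% and 10.0%, beside 11.8% and 14.0% of all genes tested, median -0.85). The lower count was 7 without 22.5 dpp replicate 1 or 3, and 4 with the library labelled 6.5 dpp fresh replicate 1 in the fit. The summed level was 944 and 1224 CPM at D16 and 2019.6, 1914 and 2054 CPM at 22.5 dpp. Besides Cyp17a1, the cholesterol side-chain cleavage enzyme gene Cyp11a1 (NCBI gene 13070, chromosome 9, bases 57998024 to 58027031) had 46.3 and 58.0 CPM at D16 and 346, 251 and 337 CPM at 22.5 dpp (log2 fold change -2.58, SE 0.41, adjusted p = 0.000363). Srd5a1, the 5-alpha-reductase of immature Leydig cells, had 6.94 and 9.50 against 20.8, 30.2 and 20.8 CPM (log2 fold change -1.54, SE 0.24, adjusted p = 0.000282), and Hsd3b1, a 3-beta-hydroxysteroid dehydrogenase, had 111 and 102 against 192, 237 and 203 CPM (log2 fold change -0.98, SE 0.29, adjusted p = 0.02, lost without D16 replicate 2). The remaining lower members, named after their values were seen, were Hsd3b6 (10.1 and 26.5 against 127, 151 and 137 CPM), whose reads can be shared with its near-identical neighbour Hsd3b1, the cholesterol carrier gene Star (34.3 and 49.6 against 97.6, 56.5 and 104 CPM), the hormone gene Insl3 (2.82 and 4.69 against 6.71, 20.3 and 35.8 CPM), Prlr (16.1 and 28.4 against 88.7, 91.2 and 54.5 CPM) and Hao2 (4.10 and 2.74 against 9.45, 13.7 and 7.83 CPM). In Insl3 the 22.5 dpp libraries were far apart, and in Star 22.5 dpp replicate 2 was close to the higher D16 library. Hsd17b3, the last enzyme of testosterone synthesis, had 7.16 and 7.08 against 12.5, 13.1 and 11.3 CPM (adjusted p = 0.0963). Nr5a1, the orphan receptor SF-1 that drives steroidogenic genes and is also made by Sertoli cells, rose, with 155 and 218 against 90.8, 111 and 87.4 CPM (log2 fold change 0.95, SE 0.24, adjusted p = 0.0106, lost without D16 replicate 2). Hsd11b1, which activates glucocorticoids, was the other higher member, with 3.98 and 2.74 against 0.361, 0.260 and 0.456 CPM (log2 fold change 3.24, SE 0.59, adjusted p = 0.000998).

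The endothelial list had the highest median of the 34 lists. Of its genes 76.2% were higher, beside 14.0% of all genes tested. Of 21 genes, 16 were higher at D16 (median 1.48), 6 of them DEGs, and the count lay between 14 and 16 whichever of the 5 libraries was left out. The list was not uniform: 3 members had a negative log2 fold change, 2 of them with both D16 libraries below every 22.5 dpp library. None of these passed as lower in the main fit, but RLE factors and DESeq2 each called 2 members lower. The summed level was 644 and 457 CPM at D16 and 170.4, 213 and 191 CPM at 22.5 dpp. Besides Pecam1, Cdh5, the cadherin of endothelial junctions, had 131 and 92.0 CPM at D16 and 16.7, 24.9 and 17 CPM at 22.5 dpp (log2 fold change 2.51, SE 0.26, adjusted p = 4.37e-06), and Esm1, a proteoglycan gene of sprouting tip cells, had 24.4 and 12.8 against 1.08, 1.97 and 1.37 CPM (log2 fold change 3.65, SE 0.44, adjusted p = 2.42e-05). Some red cell genes were at the floor of 3 counts per library at D16. Of the erythroid list 30.0% were lower, beside 11.8% of all genes tested. Hba-a1, an alpha globin gene, had 1 and 1 counts at D16 and 308, 471 and 594 counts at 22.5 dpp and Hbb-bt, a beta globin gene, had 0 and 0 counts at D16 and 198, 301 and 225 counts at 22.5 dpp. Slc4a1, the anion exchanger of red cells, had 3 and 0 counts at D16 and 9, 17 and 17 counts at 22.5 dpp. All 3 passed the test, and no fold is given against the floor. These were 3 of 10 erythroid genes tested, all lower (median -1.63; 5 lower without D16 replicate 1 and 6 without 22.5 dpp replicate 2), and the call of Slc4a1 was lost without D16 replicate 2 or 22.5 dpp replicate 1 or 3. The summed level of the list was 27.9 and 13.9 CPM at D16 and 35.8, 32.6 and 53.9 CPM at 22.5 dpp. Reads can be split between near-identical globin copies, and Hba-a2 had too few counts to be tested.

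Most macrophage genes did not pass the test. Of 22 genes 4 (18.2%) were higher and 3 (13.6%) lower, shares near the 14.0% and 11.8% of all genes tested (median -0.12; 2 and 1 without D16 replicate 2, and 1 and 2 with the library labelled 6.5 dpp fresh replicate 1 in the fit), with a summed level of 826 and 939 CPM at D16 and 517, 698 and 523 CPM at 22.5 dpp. The defining markers did not pass, with 15.0 and 14.3 against 15.4, 17.4 and 13.3 CPM for Adgre1, which encodes F4/80, and 23.3 and 31.2 against 38.7, 45.3 and 41.2 CPM for Csf1r, the receptor of the macrophage growth factor (adjusted p = 0.867 and 0.122). Gpnmb, a glycoprotein of lipid- and debris-laden macrophages, rose from below 1 CPM, with 24.7 and 30.5 CPM at D16 and 0.482, 0.671 and 0.421 CPM at 22.5 dpp (log2 fold change 5.69, SE 0.55, adjusted p = 2.97e-06). Cd14, the co-receptor for bacterial lipopolysaccharide, had 12.2 and 10.7 against 2.65, 2.71 and 2.25 CPM (log2 fold change 2.17, SE 0.38, adjusted p = 0.000705) and Mpeg1, perforin-2, had 212 and 266 against 73.4, 148 and 64.5 CPM (log2 fold change 1.32, SE 0.29, adjusted p = 0.00453, lost without D16 replicate 2). The 3 lower members are known from resident macrophages. Mrc1, the mannose receptor, had 31.1 and 45.4 against 83.8, 108 and 76.7 CPM (log2 fold change -1.23, SE 0.24, adjusted p = 0.00189), Timd4, a receptor for dying cells, had 0.173 and 0.0208 against 2.92, 3.79 and 2.77 CPM (log2 fold change -5.05, SE 1.03, adjusted p = 0.00259) and Folr2, a folate receptor, had 0.642 and 0.768 against 1.69, 2.10 and 2.21 CPM (log2 fold change -1.5, SE 0.45, adjusted p = 0.023). The calls of Timd4 and Folr2 were lost without D16 replicate 2, and that of Folr2 also without D16 replicate 1 or 22.5 dpp replicate 3.

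Markers of other leukocytes, fat and epithelia were low in both groups. Of 13 tested genes of other leukocytes 3 were lower, with summed levels of 4.27 and 2.59 CPM at D16 and 10.3, 5.80 and 10.0 CPM at 22.5 dpp. Among them were Cd4 (0.790 and 0.581 against 2.68, 1.47 and 2.49 CPM, log2 fold change -1.69, SE 0.38, adjusted p = 0.00517) and the T cell gene Cd3e (1 and 1 counts at D16 and 3, 9 and 4 counts at 22.5 dpp). The count was 1 without D16 replicate 1 and 0 without D16 replicate 2. The genes Cd8a, Nkg7, Ncr1, Ly6g, Retnlg and Fcer1a had too few counts to be tested. Of 7 adipocyte genes 1 was higher and 2 lower (1 lower without D16 replicate 2 or 22.5 dpp replicate 1 or 3), at summed levels of 32.4 and 32.3 CPM at D16 and 57.3, 47.1 and 60.5 CPM at 22.5 dpp. Fabp4, a fatty acid binding protein of adipocytes that capillary endothelium also makes, rose, with 2.62 and 2.57 against 0.301, 0.195 and 0.140 CPM (log2 fold change 3.59, SE 0.46, adjusted p = 4.28e-05). Plin1, which coats fat droplets, fell, with 5.24 and 5.52 against 12.8, 15.1 and 13.4 CPM (log2 fold change -1.36, SE 0.29, adjusted p = 0.00326), and so did the hormone gene Retn, with 0.346 and 0.291 against 1.05, 0.628 and 0.807 CPM (log2 fold change -1.37, SE 0.46, adjusted p = 0.0375, lost without any 1 library other than 22.5 dpp replicate 2). Of 9 genes of rete, epithelium and mesothelium 1 was higher (Lrrn4, 14.5 and 19.6 against 6.74, 7.43 and 5.79 CPM, log2 fold change 1.36, SE 0.44, adjusted p = 0.0311, lost without D16 replicate 2 or 22.5 dpp replicate 1 or 3) and 2 were lower. The lower ones were Krt7 (2 and 4 counts at D16 and 17, 22 and 26 counts at 22.5 dpp, adjusted p = 0.00736, no fold given as D16 averaged 3 counts) and Muc16 (1.26 and 0.270 against 8.10, 3.20 and 4.98 CPM, log2 fold change -2.84, SE 0.72, adjusted p = 0.0107), both lost without D16 replicate 2, and the list sums were 21.2 and 23.8 CPM at D16 and 21.8, 17.6 and 21.4 CPM at 22.5 dpp. The shares lower in the leukocyte, adipocyte and epithelial lists were 23.1%, 28.6% and 22.2%, beside 11.8% of all genes tested. The shares higher in the adipocyte and epithelial lists were 14.3% and 11.1%, near the 14.0% of all genes tested. The part of any of these cells in the other results was not tested.

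Hypoxia response genes rose at D16. Of the list 80.8% were higher, beside 14.0% of all genes tested. Prolyl hydroxylases mark the HIF transcription factors for decay while oxygen is present. In low oxygen the factors persist and bind a short core motif in the DNA of their targets. Of 26 list genes 21 were higher and 1 lower (median 1.23; 13 higher without D16 replicate 2), 6 of them DEGs, and the summed level was 1771 and 2078 CPM at D16 and 1200, 1235 and 1151 CPM at 22.5 dpp. Besides Vegfa and Bhlhe40, Adm, the vessel-relaxing peptide adrenomedullin (NCBI gene 11535, chromosome 7, bases 110627657 to 110629820), had 31.6 and 21.3 CPM at D16 and 0.723, 1.28 and 0.562 CPM at 22.5 dpp (log2 fold change 4.92, SE 0.43, adjusted p = 1.10e-06), and Egln3, a HIF prolyl hydroxylase that is itself a HIF target, had 25.1 and 18.7 CPM at D16 and 1.69, 2.40 and 2.32 CPM at 22.5 dpp (log2 fold change 3.36, SE 0.34, adjusted p = 3.69e-06). Both groups were well apart in each. Pfkfb4, a regulator of glycolysis with a testis-enriched form, was the lower member, with 36.7 and 30.6 against 74.5, 51.5 and 71.2 CPM (log2 fold change -0.97, SE 0.24, adjusted p = 0.00863, lost without D16 replicate 2).

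The core motif of the HIF response element was searched, as ACGTG or GCGTG on either strand, in the 250 bases before the RefSeq start of each gene (the window farthest upstream where a gene has several). Of the hypoxia list 22 genes had a window and 18 of them held the motif (81.8%), beside 49.8% of the 15120 tested genes with a window. The share was 31.2% of 16 genes in the Leydig cell list, 35.3% of 17 in the acrosome list and 32.1% of 28 in the flagellum list. Longer motifs were rare: CAAGGTCA, the half-site of SF-1, was in none of the 16 Leydig cell windows and in 1.06% of all, and TGACGTCA, the cAMP response element, in none of the 16 and in 2.32% of all. Cyp17a1 and Star had no window, so neither was searched. With shares this low over all genes, finding none in 16 windows does not set the list apart. Both strands overlap in CACGTG, and such short letters are common, so a match is a description and not a bound site. The following stretches of 90 bases, from GRCm38.p6 and 5′ to 3′ on the gene's strand, show the matches in capitals (CACGT and CACGC are the motif read on the other strand) in the called members with the smallest p whose window held any: Adm (chr7:110627522-110627611, plus strand), Egln3 (chr12:54204035-54204124, minus strand), Egln1 (chr8:124949318-124949407, minus strand) and the glucose transporter gene Slc2a1 (chr4:119108639-119108728, plus strand).
Adm: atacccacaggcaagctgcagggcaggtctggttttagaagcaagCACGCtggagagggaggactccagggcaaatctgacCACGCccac
Egln3: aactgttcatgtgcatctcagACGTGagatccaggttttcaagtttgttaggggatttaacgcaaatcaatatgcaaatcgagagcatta
Egln1: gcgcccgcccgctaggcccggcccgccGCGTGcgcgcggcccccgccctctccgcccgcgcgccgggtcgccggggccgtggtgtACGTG
Slc2a1: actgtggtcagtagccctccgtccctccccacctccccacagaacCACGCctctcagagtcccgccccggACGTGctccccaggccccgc
Adm, Egln1 and Slc2a1 held 2 matches each and Egln3 held 1. Egln1, a HIF prolyl hydroxylase, had 117 and 161 against 30.9, 44.7 and 32.7 CPM (log2 fold change 1.94, SE 0.21, adjusted p = 6.92e-06) and Slc2a1 had 68.6 and 80.3 against 20.1, 28.1 and 23.8 CPM (log2 fold change 1.63, SE 0.23, adjusted p = 9.87e-05), both named here for their sequence after their values were seen. The window of Vegfa farthest upstream and the window of Car12, another DEG of the list, held no match. Bhlhe40 and Ndrg1 had no window.

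Some glycolysis genes rose at D16. Of 17 genes 8 were higher (47.1%, against 14.0% of all genes tested) and 2 lower (11.8%, the share over all genes tested), median 0.71. Without D16 replicate 2 the counts were 3 higher and 0 lower, and without 22.5 dpp replicate 1 none was lower. Eno2, the neuronal enolase and a HIF target, had 16.5 and 21.9 CPM at D16 and 1.87, 2.94 and 2.56 CPM at 22.5 dpp (log2 fold change 2.96, SE 0.35, adjusted p = 2.09e-05). Among the phosphofructokinase genes, Pfkl, the liver form, had 151 and 238 against 60.6, 73.3 and 74.9 CPM (log2 fold change 1.48, SE 0.28, adjusted p = 0.00162), while Pfkp, the platelet form, had 119 and 81.7 against 347, 171 and 324 CPM (log2 fold change -1.49, SE 0.39, adjusted p = 0.0122) and Pfkm, the muscle form, had 172 and 115 against 325, 187 and 311 CPM (log2 fold change -0.93, SE 0.30, adjusted p = 0.0316). All 3 calls were lost without D16 replicate 2, those of Pfkp and Pfkm also without 22.5 dpp replicate 1 and that of Pfkm without 22.5 dpp replicate 3. Gpi1, the glucose phosphate isomerase, had 127 and 145 against 76.7, 89.3 and 78.7 CPM (log2 fold change 0.74, SE 0.16, adjusted p = 0.00463, lost without D16 replicate 2). Hk2 and Ldha overlapped between groups, at 105 and 183 against 70.6, 121 and 74.0 CPM and 730.2 and 324 against 977, 498 and 1065 CPM. Of 24 antioxidant genes 6 were higher and 1 lower (median 0.36). Besides Gpx3 they included G6pdx, which supplies NADPH (79.1 and 90.9 against 27.5, 37.0 and 28 CPM, log2 fold change 1.46, SE 0.20, adjusted p = 7.76e-05), and Srxn1, sulfiredoxin (20.1 and 21.9 against 9.12, 8.12 and 10.8 CPM, log2 fold change 1.17, SE 0.20, adjusted p = 0.000587). The lower one was Slc7a11, the cystine importer (2.89 and 3.74 against 12.4, 9.96 and 9.37 CPM, log2 fold change -1.67, SE 0.29, adjusted p = 0.000775), and Nqo1, a usual NRF2 target, did not pass (7.93 and 6.25 against 4.64, 4.61 and 3.97 CPM, adjusted p = 0.253).

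Complement and cytokine genes rose in part. Of 18 tested complement and acute phase genes 9 were higher (50.0%, beside 14.0% of all genes tested, median 0.86). Serpina3n, an acute phase inhibitor of proteases, had 73.7 and 116 CPM at D16 and 7.01, 15.0 and 7.86 CPM at 22.5 dpp (log2 fold change 3.25, SE 0.36, adjusted p = 8.92e-06), Saa3, serum amyloid A3, had 24.1 and 10.7 against 0.452, 0.498 and 0.211 CPM (log2 fold change 5.45, SE 0.54, adjusted p = 3.66e-06), Serping1, the C1 inhibitor, had 154 and 189 against 67.4, 83.4 and 69 CPM (log2 fold change 1.23, SE 0.18, adjusted p = 0.00019) and C3 had 49.8 and 59.5 against 23.3, 22.9 and 23.5 CPM (log2 fold change 1.23, SE 0.28, adjusted p = 0.00489, lost without D16 replicate 2). Of 26 cytokine and chemokine genes 10 were higher (38.5%, median 0.89). Spp1, osteopontin, had 45.4 and 73.1 CPM at D16 and 1.45, 2.14 and 1.30 CPM at 22.5 dpp (log2 fold change 5.17, SE 0.85, adjusted p = 0.000442). Ccl2, which draws monocytes, had 2.20 and 3.05 against 0.331, 1.06 and 0.211 CPM (log2 fold change 2.24, SE 0.67, adjusted p = 0.023, lost without D16 replicate 2 or 22.5 dpp replicate 1 or 3). Ccl3 and Ccl4, near neighbours of similar sequence, had 33 and 31 counts at D16 and 3, 1 and 2 counts at 22.5 dpp and 17 and 22 counts at D16 and 0, 2 and 0 counts at 22.5 dpp. As 22.5 dpp was at the floor of 3 counts per library in both, no fold is given.

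NF-kB, the transcription factor family of inflammation, switches on its own inhibitors. Of its target genes 60.0% were higher and 6.67% lower, beside 14.0% and 11.8% of all genes tested. Of immediate early genes 64.3% were higher. Of 15 target genes 9 were higher and 1 lower (median 0.89; 5 higher without D16 replicate 2). Nfkbia, the inhibitor IkB-alpha, had 120.1 and 147 CPM at D16 and 33.4, 52.1 and 35.8 CPM at 22.5 dpp (log2 fold change 1.72, SE 0.27, adjusted p = 0.000338) and Ier3 had 12.7 and 16.3 against 1.48, 1.99 and 1.47 CPM (log2 fold change 3.13, SE 0.27, adjusted p = 1.05e-06). Tnfaip3, the brake A20, had 6.54 and 9.50 against 3.58, 5.22 and 4.11 CPM (log2 fold change 0.90, SE 0.24, adjusted p = 0.0141, lost without D16 replicate 2 or 22.5 dpp replicate 1 or 3). Ptgs2, the inducible cyclooxygenase, had 75 and 103 counts at D16 and 2, 1 and 0 counts at 22.5 dpp, again with 22.5 dpp at the floor. Tnfaip2 was the lower member, with 24.2 and 15.6 against 42.2, 24.7 and 45.1 CPM (log2 fold change -0.90, SE 0.31, adjusted p = 0.0414, lost without the same 3 libraries). Of 14 immediate early genes 9 were higher (median 1.14; 5 without D16 replicate 2), among them Atf3 (9.61 and 10.9 against 0.452, 0.866 and 0.351 CPM, log2 fold change 4.16, SE 0.44, adjusted p = 5.79e-06), Ier2 (44.8 and 51.2 against 16.3, 21.2 and 20.9 CPM, log2 fold change 1.30, SE 0.18, adjusted p = 0.000102), Junb (24.6 and 34.8 against 11.6, 14.4 and 11.9 CPM, log2 fold change 1.23, SE 0.18, adjusted p = 0.000198), Jun (44.9 and 80.4 against 20.2, 21.9 and 24.3 CPM, log2 fold change 1.5, SE 0.30, adjusted p = 0.00245) and Fos (7.06 and 13.8 against 5.36, 4.81 and 5.05 CPM, log2 fold change 1.04, SE 0.28, adjusted p = 0.0143). The calls of Jun and Fos were lost without D16 replicate 2.

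No interferon response gene passed edgeR's test, and 22.5 dpp replicate 2 had the highest summed level. Of 21 genes none passed edgeR's test, 3 had an unadjusted p under 0.05 and DESeq2 called 2, both lower (median -0.75). The summed level was 202 and 218 CPM at D16 and 123, 546 and 125 CPM at 22.5 dpp, so 22.5 dpp replicate 2 was above every other library and the other 22.5 dpp testes were below both D16 libraries. Without 22.5 dpp replicate 2, 6 of the 21 genes were higher at D16. Isg15 had 2.86 and 1.49 against 0.933, 12.4 and 0.807 CPM and Ifit1 had 2.69 and 1.91 against 0.301, 10.6 and 0.526 CPM, and the fold change of both turned from negative to positive without that library.

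Some genes of the insulin-like growth factor axis rose at D16. The shares were 38.1% higher and 9.52% lower, beside 14.0% and 11.8% of all genes tested. Of 21 genes 8 were higher and 2 lower (median 0.56; 3 higher and 0 lower without D16 replicate 2, 4 and 0 without 22.5 dpp replicate 1, and 5 and 1 without 22.5 dpp replicate 3). Besides Igfbp3, Igfbp5 had 92.2 and 80.3 CPM at D16 and 2.14, 4.24 and 2.49 CPM at 22.5 dpp (log2 fold change 4.86, SE 0.45, adjusted p = 1.69e-06). H19, a maternally expressed lncRNA next to Igf2, had 67.4 and 96.1 against 5.36, 15.2 and 7.16 CPM (log2 fold change 3.14, SE 0.41, adjusted p = 5.45e-05), and the growth factor Igf1 had 98.4 and 101 against 51.2, 83.8 and 38.2 CPM (log2 fold change 0.79, SE 0.26, adjusted p = 0.0362). Igfbp2 went down, with 22.6 and 22.5 against 47.2, 58.8 and 60.2 CPM (log2 fold change -1.30, SE 0.41, adjusted p = 0.028), and so did Igf2bp3, an RNA-binding protein, with 22.7 and 12.5 against 50.9, 34.5 and 42.0 CPM (log2 fold change -1.27, SE 0.37, adjusted p = 0.0198). The calls of Igf1 and Igfbp2 were lost without any 1 library other than 22.5 dpp replicate 2, and that of Igf2bp3 without D16 replicate 2 or 22.5 dpp replicate 1.

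Extracellular matrix genes and their proteases rose in part. Of the protease list 52.4% were higher and of the collagen and matrix list 53.6%, beside 14.0% of all genes tested. Of 21 tested matrix proteases and inhibitors 11 were higher (median 1.32). Mmp12, the elastase of macrophages (NCBI gene 17381, chromosome 9, bases 7344397 to 7360461), had 717 and 473 counts at D16 and 1, 0 and 4 counts at 22.5 dpp (adjusted p = 1.42e-06). The 22.5 dpp libraries averaged under 3 counts, so no fold is given. Plau, the urokinase plasminogen activator, had 63.9 and 47.8 against 6.11, 9.83 and 8.53 CPM (log2 fold change 2.77, SE 0.27, adjusted p = 3.57e-06), Mmp11 had 59.4 and 88.1 against 16.7, 22.5 and 17.8 CPM (log2 fold change 1.96, SE 0.21, adjusted p = 6.51e-06) and the gelatinase Mmp2 had 43.4 and 57.6 against 13.1, 21.1 and 15.8 CPM (log2 fold change 1.6, SE 0.32, adjusted p = 0.00246). Of 28 collagens and interstitial matrix genes 15 were higher and 1 lower (median 1.0; 8 higher without D16 replicate 2). Lum, lumican of collagen fibrils, had 41.8 and 39.6 CPM at D16 and 6.71, 7.84 and 5.05 CPM at 22.5 dpp (log2 fold change 2.64, SE 0.28, adjusted p = 5.79e-06), Tnc, tenascin of healing tissue, had 26.1 and 18.7 against 2.50, 1.43 and 1.93 CPM (log2 fold change 3.52, SE 0.38, adjusted p = 7.14e-06) and Lox, which crosslinks collagen, had 23.4 and 18.3 against 3.91, 6.02 and 2.98 CPM (log2 fold change 2.27, SE 0.29, adjusted p = 4.06e-05). The proteoglycans Dcn (846 and 637 against 242, 259 and 179 CPM, log2 fold change 1.71, SE 0.44, adjusted p = 0.0114, lost without 22.5 dpp replicate 3) and Bgn (160 and 163 against 63.3, 94.0 and 62.6 CPM, log2 fold change 1.14, SE 0.25, adjusted p = 0.00429) rose, whereas Col1a1 (285 and 295 against 162, 241 and 144 CPM, adjusted p = 0.166) and Ccn5 (5.41 and 11.6 against 3.85, 4.2 and 3.62 CPM, adjusted p = 0.0599) did not pass. Ccn2, a target of TGF-beta and YAP, was lower, with 35.7 and 35.2 against 54.5, 80.2 and 75.6 CPM (log2 fold change -0.98, SE 0.22, adjusted p = 0.00438, lost without D16 replicate 2).

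Some lipid genes rose, and most retinoid genes did not pass the test. Of 25 genes of cholesterol synthesis and lipoprotein uptake 8 were higher (median 0.40; 2 without D16 replicate 2 and 5 without 22.5 dpp replicate 1 or 3). Besides Vldlr they included Abcg1, a cholesterol exporter (23.0 and 36.0 against 8.13, 13.1 and 8.74 CPM, log2 fold change 1.56, SE 0.37, adjusted p = 0.0067, lost without D16 replicate 2). Of 20 retinoid genes 5 were higher and 3 lower (median -0.21; 2 higher without D16 replicate 2, and no lower gene without it or without 22.5 dpp replicate 1 or 3). Aldh1a3, which makes retinoic acid, had 22.5 and 25.9 against 10.6, 13 and 8.77 CPM (log2 fold change 1.16, SE 0.20, adjusted p = 0.000787) and Rdh10, a retinol dehydrogenase, had 21.6 and 37.7 against 11.7, 15.2 and 13.2 CPM (log2 fold change 1.15, SE 0.23, adjusted p = 0.00251, lost without D16 replicate 2). The lower members were Aldh1a2, the retinoic acid synthase of spermatocytes (155 and 110 against 234, 166 and 242 CPM, log2 fold change -0.69, SE 0.24, adjusted p = 0.0398), Rdh11 (204 and 95.4 against 469, 270 and 389 CPM, log2 fold change -1.33, SE 0.40, adjusted p = 0.0236) and Cyp26c1 (0.198 and 0.187 against 0.421, 0.520 and 0.421 CPM, log2 fold change -1.24, SE 0.39, adjusted p = 0.0297). The call of Cyp26c1 was lost without any 1 of the 5 libraries. Stra6, the retinol importer, had 18.7 and 13.1 against 18.4, 14.8 and 16.4 CPM (adjusted p = 0.891).

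Genes of the integrated stress response and p53 targets rose in part. Of these lists 60.0% and 47.1% were higher, beside 14.0% of all genes tested. Of the p53 list 5.88% were lower, beside 11.8% of all genes tested. Of 15 genes of the integrated stress and unfolded protein response 9 were higher (median 0.86; 5 without D16 replicate 2). Trib3, a pseudokinase induced by ATF4, had 9.56 and 13.2 CPM at D16 and 0.963, 1.91 and 1.58 CPM at 22.5 dpp (log2 fold change 2.93, SE 0.35, adjusted p = 2.59e-05), Asns, asparagine synthetase, had 93.7 and 97.8 against 48.0, 58.1 and 45.5 CPM (log2 fold change 0.92, SE 0.17, adjusted p = 0.000987) and Atf4 itself had 154 and 214 against 94.9, 96.6 and 113 CPM (log2 fold change 0.86, SE 0.19, adjusted p = 0.00529, lost without D16 replicate 2). Ddit3, the death-linked factor CHOP, overlapped between groups (52.3 and 41.4 against 65.4, 41.0 and 81.1 CPM, adjusted p = 0.187). Of 10 heat shock genes, 1 in each direction passed the test, shares (10.0%) near those over all genes. Higher was Hspb1 (23.4 and 21.8 against 4.03, 8.05 and 6.04 CPM, log2 fold change 1.90, SE 0.28, adjusted p = 0.000184), and lower was Hsp90aa1 (278 and 219.7 against 504, 419 and 488 CPM, log2 fold change -0.92, SE 0.23, adjusted p = 0.00859, lost without D16 replicate 2). Hspa1a and Hspa1b, near-identical copies, had 2.44 and 3.42 against 1.75, 2.86 and 2.84 CPM and 5.24 and 7.41 against 3.91, 4.35 and 5.16 CPM. Of 17 p53 targets and senescence genes 8 were higher and 1 lower (median 0.52; 3 higher without D16 replicate 2, 5 without 22.5 dpp replicate 1 and 4 without 22.5 dpp replicate 3). They included Eda2r (4.10 and 4.83 against 0.843, 1.71 and 0.877 CPM, log2 fold change 1.95, SE 0.33, adjusted p = 0.00052), Gdf15 (1.19 and 1.76 against 0.421, 0.390 and 0.246 CPM, log2 fold change 2.04, SE 0.37, adjusted p = 0.00104) and Bbc3, the death protein PUMA (7.04 and 7.57 against 1.72, 3.44 and 2.67 CPM, log2 fold change 1.48, SE 0.29, adjusted p = 0.0017). The cell cycle brakes Cdkn1a (19.3 and 22.3 against 22.4, 15.4 and 19.3 CPM) and Cdkn2a (16 and 13.9 against 12.8, 14.9 and 15.4 CPM) overlapped between groups, and Mdm2, the ligase of p53, was lower (166 and 150.1 against 248, 202 and 240.5 CPM, log2 fold change -0.54, SE 0.19, adjusted p = 0.048, lost without any 1 library other than 22.5 dpp replicate 2).

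Of 20 genes of the mitotic cell cycle 3 were lower (15.0%, near the 11.8% of all genes tested, median -0.28). They were Top2a (304 and 302 against 590.5, 569.9 and 512 CPM, log2 fold change -0.88, SE 0.28, adjusted p = 0.0297), Plk1 (45.9 and 26.2 against 82.8, 55.8 and 84.7 CPM, log2 fold change -1.05, SE 0.26, adjusted p = 0.00873) and Aurka (139 and 61.1 against 269.9, 155 and 268 CPM, log2 fold change -1.21, SE 0.34, adjusted p = 0.0164), kinases and a topoisomerase that spermatocytes use too. No member passed without D16 replicate 2, and 1 passed without 22.5 dpp replicate 1 or 3. Mki67 overlapped between groups, at 56.0 and 94.5 against 121, 137 and 89.7 CPM (adjusted p = 0.293).

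**Figure D4:**
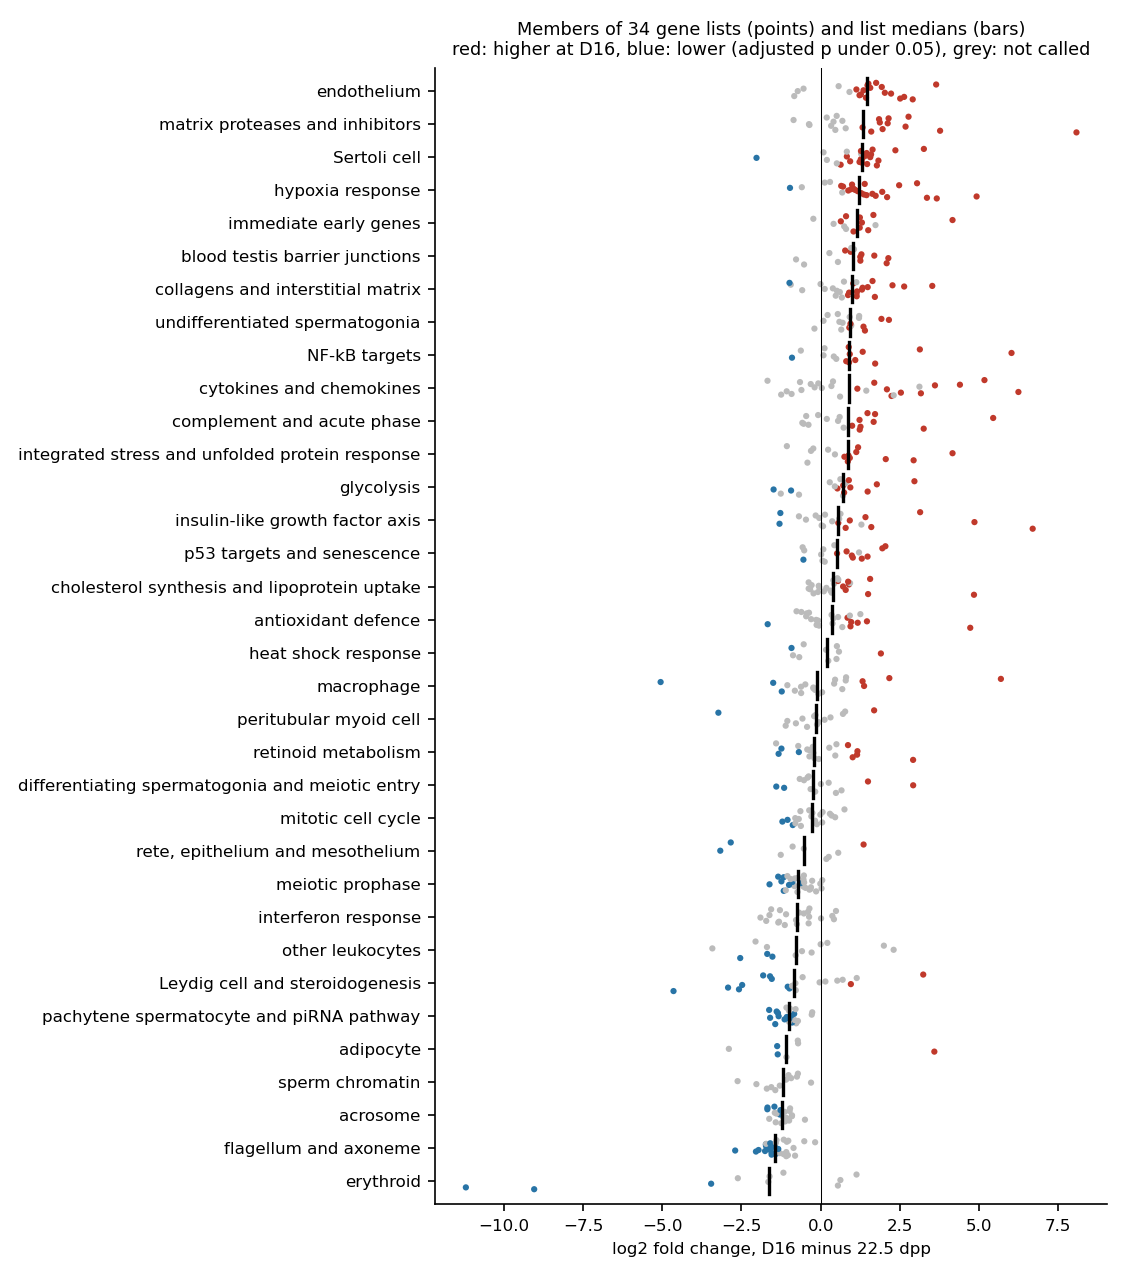
Log2 fold change of D16 minus 22.5 dpp for the tested members of 34 gene lists, with 1 point per gene (red higher, blue lower by adjusted p under 0.05, grey not called) and a bar at the list median. Medians run from -1.63 for the erythroid list and -1.43 for the flagellum list at the bottom to 1.48 for the endothelial list at the top, and in most lists grey points lie among the coloured ones.

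Genes were also counted by chromosome and class. On the X chromosome, which spermatocytes silence during pachytene, 200 of 800 genes tested were higher at D16 (25%) and 17 lower (2.13%), beside 13.5% and 12.2% of the 18407 autosomal genes, and the median log2 fold change was 0.50 against -0.11. Tmem255a, chosen after its values were seen as the X-linked DEG with the smallest p, had 232 and 375 CPM at D16 and 70.4, 87.1 and 50.6 CPM at 22.5 dpp (log2 fold change 2.13, SE 0.26, adjusted p = 3.06e-05). Of 7 mitochondrial mRNAs tested 7 were higher (median 1.38). The subunit gene COX1, named with ND5 after their values were seen, had 6718 and 4713 CPM at D16 and 2225, 2914 and 1215 CPM at 22.5 dpp (log2 fold change 1.43, SE 0.33, adjusted p = 0.00582) and ND5 had 1953 and 1566 against 609.5, 992 and 342 CPM (log2 fold change 1.44, SE 0.32, adjusted p = 0.00504), and in both the 22.5 dpp libraries spread widely, with replicate 2 highest. Of 1748 lncRNA genes tested 64 (3.66%) were higher and 163 (9.32%) lower, against 2621 (15.2%) and 2084 (12.1%) of 17231 protein-coding genes.

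In some genes the culture effect at D16 differed from that at D4 or D30. Setting D16 minus 22.5 dpp against D4 minus 10.5 dpp, the difference of the effects itself passed the DEG thresholds in 83 genes (0.431%), 46 larger and 37 smaller at D16. Against D30 minus 36.5 dpp it passed in 321 genes (1.67%), 269 larger and 52 smaller at D16. Larger and smaller refer, here and below, to the signed log2 fold change. A larger effect was thus a more positive one and not always a stronger one. Mest had 55.0 ± 2.01 CPM at D4 and 53 ± 0.357 CPM at 10.5 dpp (SD, n = 3 each), a log2 fold change of 0.05 that did not pass, and its effect at D16 was larger by 3.82 (SE 0.33, adjusted p = 5.95e-06). Its level in explants at D16 was thus near that at D4, while the testes at 22.5 dpp were far below those at 10.5 dpp. Igfbp3 was already higher at D4 (log2 fold change 3.33), and its effect at D16 was larger by 3.36 (SE 0.44, adjusted p = 0.000278). Il33, an alarmin cytokine, went the other way. It had 6.54 ± 1.15 CPM at D4 and 0.116 ± 0.0494 CPM at 10.5 dpp (SD, n = 3 each), against 8.99 and 6.72 CPM at D16 and 6.17, 4.16 and 5.09 CPM at 22.5 dpp, and the effect at D16 differed by -5.17 (SE 0.50, adjusted p = 2.11e-05). Serping1 had 268 ± 45.8 CPM at D30 (SD, n = 4) and 24.1 ± 0.506 CPM at 36.5 dpp (SD, n = 2) and its effect at D16 minus that at D30 was -2.25 (SE 0.27, adjusted p = 3.33e-05). Cdyl, a chromatin reader that spermatids use, had 79.7 ± 9.32 CPM at D30 (SD, n = 4) and 391 ± 9.42 CPM at 36.5 dpp (SD, n = 2). It was lower in culture at D30 and higher at D16, where it had 53.3 and 67.6 CPM at D16 and 31.2, 34.9 and 30.6 CPM at 22.5 dpp, and the effects differed by 3.20 (SE 0.21, adjusted p = 1.33e-07). Without D16 replicate 1 or 2 or 22.5 dpp replicate 1 or 3 the first count was 31, 36, 31 and 35. The second was 150 without D16 replicate 1, 204 without 22.5 dpp replicate 1 and 196 without 22.5 dpp replicate 2.

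**Figure D5:**
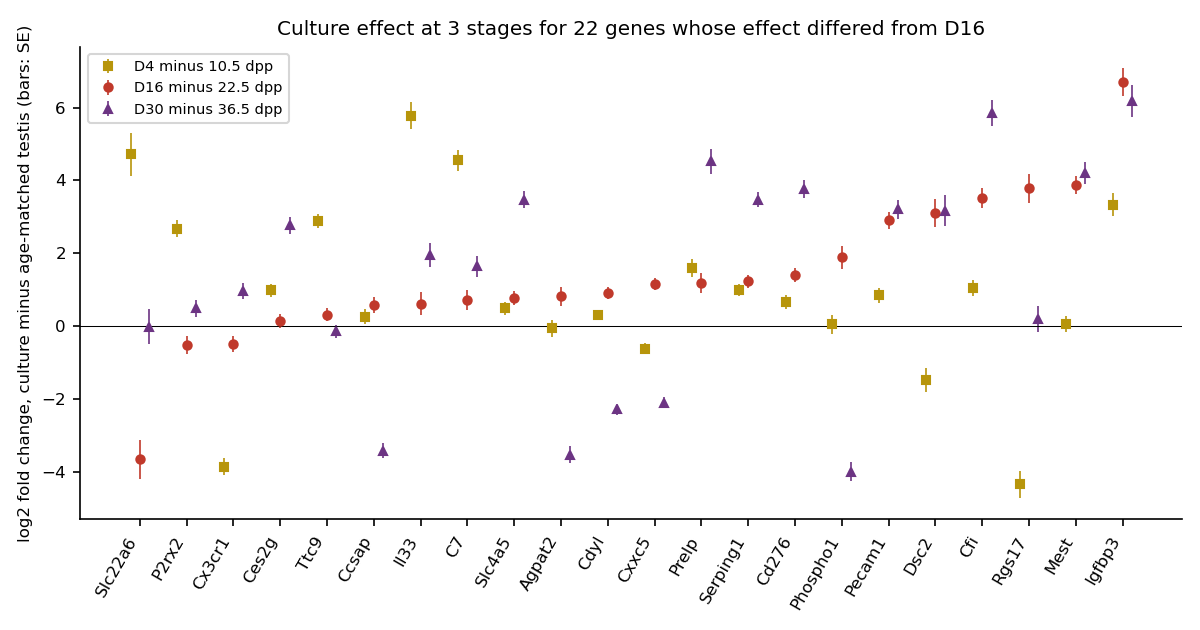
Log2 fold change of culture minus the age-matched testis at D4 (squares), D16 (circles) and D30 (triangles), with bars of 1 SE, for 22 genes whose effect at D16 differed from that at D4 or D30. Il33 and C7 are high at D4 and near 0 at D16, whereas Mest is near 0 at D4 and at 3.87 at D16.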

How the data were processed

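Total RNA from testes and cultured explants was sequenced as stranded poly(A) libraries. The deposited values were raw counts per gene, which the authors made with STAR 2.7.3a on GRCm38 (mm10) and HTSeq 0.12.4 after bcl2fastq 2.17.1.14. The strand setting and annotation are not given in the sources used here. Of 27466 genes, 3712 had no count in any library, and 0.0204% of counts lay on genes outside the annotation used for coordinates.

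Of 23 columns, those of 6.5 dpp fresh replicates 2 and 3 were identical and entered as 1 library. The library labelled 6.5 dpp fresh replicate 1 was left out. The remaining 21 libraries were fitted in 7 stage groups with edgeR 4.0.16 (R 4.3.3, TMM, filterByExpr, quasi-likelihood F test, Benjamini-Hochberg over 19255 genes, 14 residual degrees of freedom), frozen-thawed libraries being grouped with fresh ones of their stage. Levels are CPM on TMM-scaled library sizes, and 3 counts per library was the floor. Fold changes came from edgeR's fit with its default prior count. A prior count of 2 was used only for the log2 CPM behind the correlation of replicate deviations. Floors cover counting error only, and p-values measure the spread between these samples. Gene positions, the RefSeq promoter windows and the motif counts are on GRCm38.p6. Named were the study's genes and markers, the 10 DEGs of smallest p per direction without overlap, the first 2 members of each list and up to 3 called members per direction, and 5 genes per direction of each stage difference, with other genes identified where they occur. Some genes that these rules name are not reported here. Members and lists were chosen with earlier results of these data known. In simulated counts for this comparison over 19117 genes, 69 of 100 genes changed 4-fold and 95 of 100 changed 8-fold passed the test, as did 13 unchanged genes. Of the changed genes 28 and 83 reached the DEG thresholds. The counts were drawn for each gene separately, without shifts that genes share between replicates. The simulation therefore does not measure errors from such shifts. DESeq2 1.42.0, other scalings, filters, thresholds, sets of libraries, a replicate term and leaving out each library were the alternatives.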

Additional observations from a re-analysis of the deposited data

Results flagged for a closer look

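Groups of 2 and 3 libraries are too small to test for a single deviating value. All genes below were picked out because the effect of culture at D16 differed from that at another stage by edgeR's test of the difference itself, past an absolute log2 difference of 2 and an adjusted p of 0.001. The 22.5 dpp, 10.5 dpp and 36.5 dpp testes are separate groups, so the effects share no control. Larger and smaller again refer to the signed log2 fold change, so a smaller effect can be a stronger fall.

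Against D4, the effect at D16 was larger by 8.14 (SE 0.54, adjusted p = 2.64e-07) on the log2 scale for Rgs17, which encodes a regulator of G protein signalling. The differences were 4.59 (SE 0.50, adjusted p = 6.35e-05) for the desmosomal cadherin gene Dsc2 and 3.38 (SE 0.31, adjusted p = 9.04e-06) for the chemokine receptor gene Cx3cr1. They were 3.82 for Mest, 3.36 for Igfbp3, 2.48 (SE 0.35, adjusted p = 0.000409) for Cfi and 2.06 (SE 0.30, adjusted p = 0.000692) for Pecam1. The effect at D16 was smaller for the transporter gene Slc22a6 (-8.38, SE 0.80, adjusted p = 6.35e-05) and for Il33 (-5.17). Slc22a6 averaged 0.0171 CPM at 10.5 dpp, under the floor of 3 counts, so the size of its difference depends on the prior count. The same direction was seen in the complement gene C7 (-3.83, SE 0.40, adjusted p = 5.40e-05), the ion channel gene P2rx2 (-3.19, SE 0.35, adjusted p = 6.35e-05) and Ttc9 (-2.57, SE 0.26, adjusted p = 3.68e-05).

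Against D30, the effect at D16 was larger for Phospho1, a phosphatase gene (5.89, SE 0.40, adjusted p = 1.33e-07), Agpat2, of phospholipid synthesis (4.36, SE 0.35, adjusted p = 8.10e-07), and Ccsap, of centrioles and cilia (4.00, SE 0.30, adjusted p = 4.92e-07). It was also larger for Rgs17 (3.59, SE 0.52, adjusted p = 0.000229), Cxxc5 (3.26, SE 0.22, adjusted p = 1.33e-07) and Cdyl (3.20). The effect at D16 was smaller for the matrix proteoglycan gene Prelp (-3.35, SE 0.42, adjusted p = 5.04e-05), the transporter gene Slc4a5 (-2.70, SE 0.29, adjusted p = 1.16e-05) and the carboxylesterase gene Ces2g (-2.62, SE 0.30, adjusted p = 2.08e-05). Smaller effects were also found in the immune checkpoint gene Cd276 (-2.38, SE 0.31, adjusted p = 7.79e-05), in Cfi (-2.33, SE 0.40, adjusted p = 0.000907) and in Serping1 (-2.25).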

How the results depend on the processing

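Of 2749 refits of single genes 2445 kept direction and side of the threshold, 257 lost the call, 26 gained it and 21 changed sign, and of 952 list counts 745 stayed within 1.5 times. DESeq2 gave 427 DEGs (178 lower), 3527 genes lower at adjusted p under 0.05, 353 differences from D4 (129 larger, 224 smaller) and 702 from D30 (585 larger, 117 smaller). With the library labelled 6.5 dpp fresh replicate 1 there were 98 DEGs (91 higher, 7 lower), 1924 genes passing (1570 higher, 354 lower), 5 differences from D4 (5 larger, 0 smaller) and 143 from D30 (132 larger, 11 smaller). With the 5 libraries alone there were 0 DEGs (0 higher, 0 lower), 6317 genes at an unadjusted p under 0.05, and 1687 passing edgeR's test (1123 higher, 564 lower; smallest adjusted p 0.00724). Fewer libraries then estimated the spread. Thresholds of log2 1 and p 0.05 gave 3287 DEGs (1700 higher, 1587 lower), and 1.5 and 0.001 gave 428 (361 higher). For D30, library size alone gave 149 larger and 211 smaller differences, and RLE factors 34 smaller. Leaving out 1 library gave 143 to 309 DEGs (117 to 248 higher, 10 to 61 lower), 1155 to 6184 genes passing (970 to 3186 higher, 185 to 3042 lower), 31 to 107 differences from D4 (12 to 67 larger, 10 to 40 smaller) and 150 to 276 from D30 (142 to 243 larger, 8 to 38 smaller). Of single-gene calls, 55 were lost with the library labelled 6.5 dpp fresh replicate 1, 48 with the 5 libraries alone, 9 with library size alone (Ddx4, Dmrtb1, Retn, Pfkm, Tnfaip2, Cyp26c1, Aldh1a2, Top2a and Mdm2), 5 without a filter, 4 with fresh libraries only, 2 with RLE factors (Amh and Agpat2) and 1 with DESeq2 (Cd3e). Except where stated, the cause was not tested.

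Replicate numbers are shared between groups without any label that pairs them. Deviations of same-numbered libraries from their group means correlated at 0.525 for number 1 and 0.661 for number 2, but also at 0.536 for D16 replicate 1 with 22.5 dpp replicate 3, and the deviations of the 2 D16 libraries mirror each other. With a replicate block there were 48 differences from D4 (22 larger) and 202 from D30 (172 larger, 30 smaller), and the counts of DEGs and of genes passing stayed within 1.5 times. The calls of Slc4a1, Retn and Mdm2 were lost.

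None of the sign changes was in a gene that passed the test. Leaving out 1 library gave log2 fold changes of -0.35 (without D16 replicate 2) to 0.14 (without 22.5 dpp replicate 2) for Kit, -0.96 to 0.38 for Sycp3, -5.39 to 0.17 for Odf1, -0.17 to 0.026 for Adgre1, -0.64 and -0.20 to 0.90 for Pax8, -0.21 to 0.62 for Krt19, -1.67 to 1.32 for Isg15, -1.29 to 2.48 for Ifit1, -0.34 to 0.18 (0.025 without 22.5 dpp replicate 1) for Stra6, -0.019 to 0.47 for Hspa1a, -0.0040 to 0.26 for Cdkn1a and -0.042 (-0.020 without 22.5 dpp replicate 1) to 0.16 for Cdkn2a. Library size alone gave 3.98e-05 (Sycp3), 0.074 (Adgre1) and 0.099 (Stra6), the 5 libraries alone 0.0048 (Stra6), and RLE factors and DESeq2 -0.038 each (Cdkn2a).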
